A study of Rattus norvegicus with 10 samples.

Results

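The complement and coagulation proteins of the liver are a set of 41 listed genes, chosen by name for their place in the complement cascade, the clotting cascade, its inhibitors and fibrinolysis. A gene entered when the platform annotation gave a probe set that single symbol, and where several probe sets did so, the one with the highest mean log2(intensity + 16) over all rats stood for the gene. This gave 36 genes out of 14217 with such a probe set in the whole table. C2 and Cfb share 4 probe sets that the annotation gives to both, and F7, F11 and F13b matched none, so these 5 genes were not analysed here. The rule itself used no measured difference between the groups, but the genes were listed with earlier results of these data known.

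Liver RNA was hybridised from 10 rats of the Wistar/ST stock, 1 Affymetrix array per rat. All rats ate a high-fat diet. The 5 mulberry rats received dried mulberry leaf powder in 0.5% carboxymethylcellulose by gastric probe after an overnight fast, with 500 mg per kg stated as the daily dose, and for the 5 control rats the stated dose was 0 mg per kg. The labels also put the administration on a 6 weekly basis, which may mean 6 times a week. Livers were collected after 7 weeks. Sex and age are not given in the labels used here, and no group on a normal diet is part of the comparison.

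Complement is a chain of plasma proteases and binding proteins that coats microbes and punches pores in their membranes. Coagulation is a second protease chain that ends in thrombin, which turns fibrinogen into fibrin, and plasmin dissolves the clot again. Hepatocytes are the main source of most of these plasma proteins, and several of them, fibrinogen and C3 among them, are acute-phase proteins whose transcription is raised by interleukin-6 and related cytokines.

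Correlations between arrays lay between 0.957 and 0.975, and the median intensity per array between 97.5 and 118. All 6 hepatocyte markers were measured above the filter level described next, and their summed intensity ran from 141891 to 181918 in control and from 143485 to 184757 in mulberry rats. The tests were run on log2(intensity + 16) for the 18625 probe sets whose mean over the rats lay above an intensity of 61.1, and all 36 genes passed that level. An intensity is a brightness in arbitrary units, so values of different genes were not compared with each other.

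No complement or coagulation transcript passed the test between mulberry and control livers. With limma, 0 of the 36 genes passed an adjusted p of 0.05, against 0% of all 18625 probe sets tested (0 called), and the adjusted p of every one of the 36 was 0.9999. At an unadjusted p under 0.05 the count was also 0 of 36, where 1.74% of all tested probe sets (325) lay under that level. The groups overlapped for each of the 36 genes. Over all tested probe sets, 0.344% had groups that did not overlap.

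Below, a positive difference means a higher mean log2(intensity + 16) in mulberry rats, and the value after ± is its standard error (SE) in the limma model. The differences ran from -0.11 for Mbl2 to +0.25 for C6, and 27 of the 36 were smaller than 0.1 in size. The median was +0.039, against +0.0075 for all tested probe sets, and 30 of the 36 genes had a higher mean in mulberry rats, a share to be set beside 52.5% of all tested probe sets and 59.6% of the 627 with a mean log2 value of at least 13. Mulberry rat 1 carried much of that count. Without it 21 of 36 means were higher and the median was +0.020, and without control rat 2 the median was +0.020 as well. It reached +0.062 without mulberry rat 3. The 6 hepatocyte markers all had a higher mean in mulberry rats too, with a median of +0.049. For the 598 other probe sets with a mean log2 value of at least 13 the median was +0.012.

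Most of the intervals were narrow. The 95% interval of the difference held 0 for all 36 genes, and it lay between -0.5 and 0.5 for 34 of them and between -0.25 and 0.25 for 24. The genes whose intervals reached past 0.5 were Cfd, with -0.41 to +0.90, and C6, with -0.057 to +0.56. The intervals of Masp1 (-0.36 to +0.41) and C5 (-0.19 to +0.46) were wider than that of C6 but lay closer to 0. Within groups, the SD of the log2 values had a median of 0.11 over the 36 genes, against 0.26 over all tested probe sets and 0.15 over 598 other probe sets with a mean log2 value of at least 13.

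**Figure D1:**
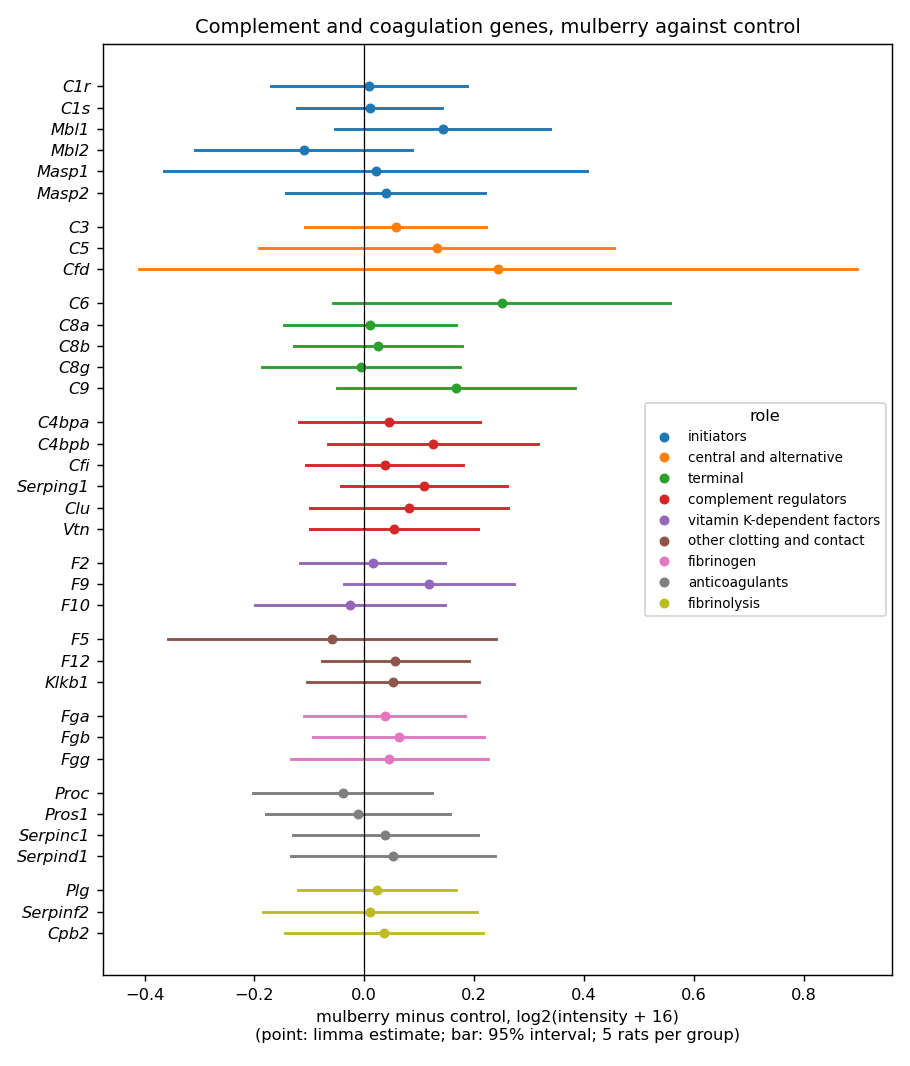
Difference between mulberry and control rats for each of the 36 genes, on the log2(intensity + 16) scale, ordered by role; points are limma estimates and bars their 95% intervals (5 rats per group). All 36 bars cross 0, the bar of Cfd is the widest, and those of Cfd and C6 are the ones that reach past 0.5.

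Complement can be started by antibody-bound C1 or by lectins that recognise microbial sugars. Among the 6 initiator genes measured, 5 had a higher mean in mulberry rats and 0 passed the limma test, with a median of +0.016 that turned below 0 without control rat 5 or mulberry rat 1. The 2 mannose-binding lectins pointed in opposite directions. In control rats 1 to 5 the intensity of Mbl1 was 5919, 5638, 6953, 6354 and 6056, and in mulberry rats 1 to 5 it was 7923, 6620, 6143, 6927 and 6565. All 5 mulberry rats lay above the control median, but only mulberry rat 1 lay above the highest control. The difference was +0.14 ± 0.090 (SE).

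Mbl2, the second of these lectins, was measured at 15861, 14918, 16235, 18705 and 15502 in control rats 1 to 5. In mulberry rats 1 to 5 it stood at 18185, 13947, 14462, 14193 and 14584. Mulberry rat 1 was far above the other mulberry rats, which all lay below the lowest control. Its difference was -0.11 ± 0.091 (SE), and the dimmer probe set of the gene gave -0.087 ± 0.16. Without mulberry rat 1 the difference of Mbl2 was -0.18, and that of Mbl1 was +0.088.

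C1r and C1s are the paired serine proteases of the C1 complex. C1s had the steadiest values of all 36 genes, from 16316, 16672, 17205, 17401 and 16327 in control rats 1 to 5 to 17743, 16874, 16551, 16364 and 17000 in mulberry rats. The highest rat was only 1.09 times the lowest, and the difference was +0.010 ± 0.061 (SE); its sign turned without mulberry rat 1 and with 2 of the other scalings. C1r differed by +0.0088 ± 0.082 (SE).

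Of the lectin pathway proteases, Masp1 was more variable than C1r and C1s. Masp1, a protease that binds mannose-binding lectin, ran at 2550, 2339, 1888, 1633 and 1702 in control rats 1 to 5 and at 2192, 1350, 2432, 2487 and 1878 in mulberry rats. Both groups spanned nearly the same range, and the difference was +0.021 ± 0.18 (SE). Its sign was not stable: 1 of its 3 probe sets gave -0.11 ± 0.16, and the sign also turned with array weights and without any 1 of 5 rats. Masp2, which cleaves C4 and C2, differed by +0.039 ± 0.084 (SE), and all 3 of its probe sets had a higher mean in mulberry rats.

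Of the central and alternative pathway, C3, C5 and Cfd were measured, and all 3 had higher means in mulberry rats with 0 passing limma. C3 is the protein on which all pathways converge. Its intensity was 35005, 34850, 39257, 39329 and 35045 in control rats 1 to 5 and 42476, 33834, 36204, 40889 and 37826 in mulberry rats, a difference of +0.057 ± 0.076 (SE). Control rats 3 and 4 and mulberry rats 1, 4 and 5 were the high ones, so high and low rats occurred in both groups.

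C5, whose cleavage starts the pore, was at 5961, 5235, 3161, 4507 and 4790 in control rats 1 to 5. In mulberry rats it was at 5990, 5254, 4711, 5071 and 4481. Control rat 3 was the lowest of all 10, and the difference of +0.13 ± 0.15 (SE) vanished without that rat, at -0.0053.

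Cfd, or adipsin, cuts factor B in the alternative pathway and is best known as a product of fat cells. It had the largest spread of the 36 genes, with the highest rat 3.4 times the lowest. Control rats 1 to 5 were at 241, 273, 667, 369 and 274 and mulberry rats 1 to 5 at 523, 439, 196, 575 and 411. Control rat 3 was the highest and mulberry rat 3 the lowest, and the difference was +0.24 ± 0.30 (SE). It was +0.12 without mulberry rat 4 and +0.49 without mulberry rat 3. All 4 adipocyte markers on the array (Adipoq, Plin1, Lep and Fabp4) lay below the filter level, with a summed intensity from 63.4 to 194 in control and from 90.3 to 208 in mulberry rats. C1qa, a complement subunit made by Kupffer cells, was likewise highest in control rat 3 and lowest in mulberry rat 3, at 2379, 2778, 5359, 2809 and 2718 in control rats 1 to 5 and 3210, 4425, 2139, 4874 and 4584 in mulberry rats. The summed level of 5 Kupffer cell and macrophage markers ran from 4847 to 8605 in control and from 4222 to 8269 in mulberry rats, and its part in the Cfd values was not tested. In liver tissue as a whole, fewer cells of a type and less RNA per cell cannot be told apart.

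The terminal proteins C6, C8 and C9 assemble on the membrane into the pore. Of the 5 genes, 4 had a higher mean in mulberry rats, 0 passed limma, and the median was +0.025, which turned to -0.0018 without mulberry rat 1. C6, the second component of the pore after C5b, had the largest difference of the 36 genes. In control rats 1 to 5 it was at 4536, 4080, 5081, 4966 and 4147, and in mulberry rats at 5570, 5439, 4257, 7674 and 4665. Mulberry rats 1, 2 and 4 were above every control, mulberry rats 3 and 5 were within the control range, and mulberry rat 4 was the highest by a wide margin. The mean of the control group was 4562 ± 458 and that of the mulberry group 5521 ± 1320 (SD, n = 5). The difference of +0.25 ± 0.14 (SE), or 1.19 times, had the smallest unadjusted limma p of the 36 genes, at 0.102. It was +0.12 without mulberry rat 4 and +0.34 without mulberry rat 3.

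C9, which polymerises to form the ring of the pore, was at 20292, 20250, 14070, 17874 and 20305 in control rats 1 to 5. Mulberry rats 1 to 5 were at 20236, 20976, 21326, 21274 and 19445. Control rat 3 stood lowest of all 10 rats and control rat 4 next, while the other 3 controls and all mulberry rats lay close together. The difference was +0.17 ± 0.10 (SE), and without control rat 3 it was +0.071. The 3 chains of C8 differed by +0.010 (C8a), +0.025 (C8b) and -0.0058 (C8g), all within their SE, and C8g is the lipocalin chain of the complex.

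**Figure D2:**
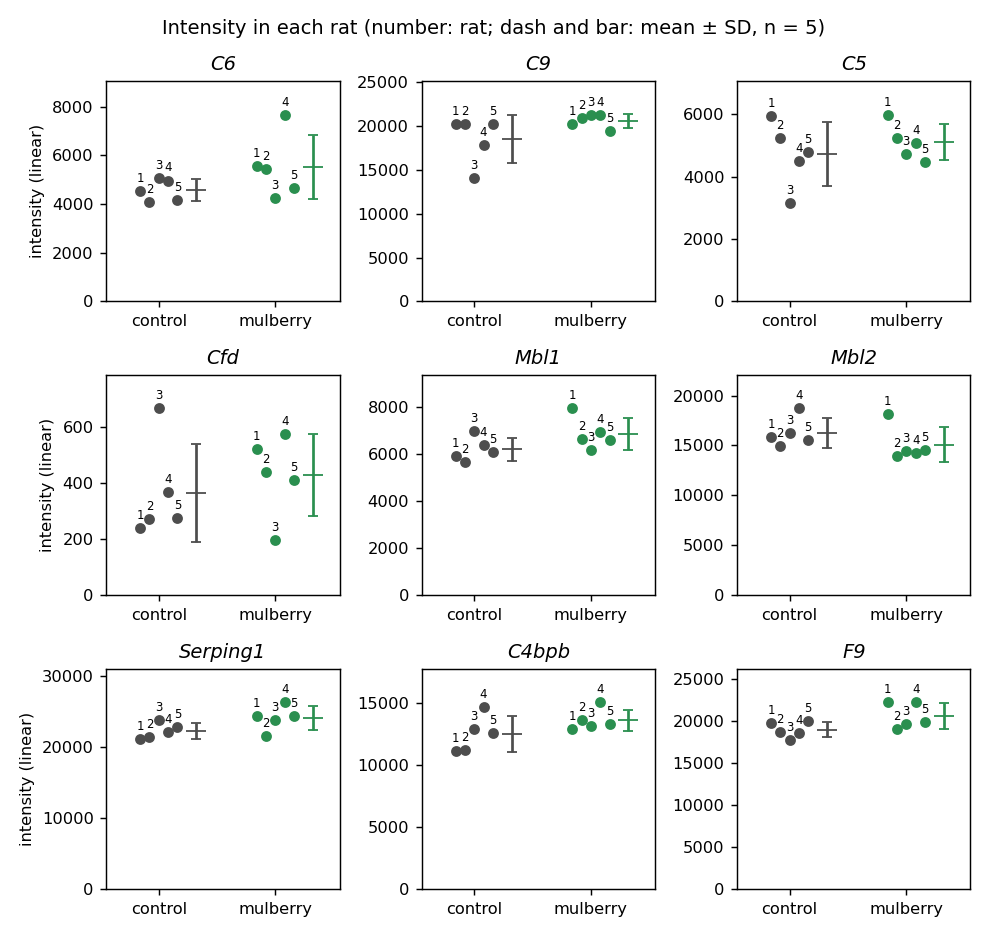
Linear intensity in each rat for 9 of the 36 genes (points, numbered by rat; dashes and bars are group mean ± SD, n = 5). The groups overlap in every panel; mulberry rat 4 is high for C6, control rat 3 is low for C9 and C5 and high for Cfd, and mulberry rat 1 is high for Mbl2.

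Regulators keep complement off the body's own cells. All 6 regulator genes had a higher mean in mulberry rats, with differences from +0.037 to +0.13, a median of +0.068 and 0 past limma. The median stayed above 0 in each of 20 alternative settings, between +0.025 and +0.10. So did the medians of the central and alternative, the other clotting and contact, and the fibrinogen genes. These settings all reuse the same rats. Serping1, the C1 inhibitor, which also restrains plasma kallikrein and factor XII, was at 21165, 21401, 23855, 22078 and 22858 in control rats 1 to 5 and at 24330, 21563, 23726, 26296 and 24291 in mulberry rats. Mulberry rats 1, 4 and 5 were above every control. Its difference was +0.11 ± 0.070 (SE).

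C4b-binding protein, which speeds the decay of the C3 convertase, is built of an alpha and a beta chain. The beta chain gene C4bpb was at 11129, 11205, 12900, 14652 and 12595 in control rats 1 to 5 and at 12885, 13616, 13098, 15046 and 13257 in mulberry rats. Control rats 1 and 2 were the lowest of the 10, and all mulberry rats lay above the control median. The difference was +0.13 ± 0.088 (SE), against +0.045 ± 0.076 for the alpha chain gene C4bpa. Clu (clusterin) and Vtn (vitronectin), which block assembly of the pore, differed by +0.081 ± 0.083 and +0.054 ± 0.071, and Cfi, the protease that degrades C3b and C4b, by +0.037 ± 0.066 (SE). The dim second probe set of Clu gave -0.040 ± 0.34.

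The vitamin K-dependent zymogens F2, F9 and F10 need gamma-carboxylation to bind membranes. Of these 3 genes 2 had a higher mean in mulberry rats and 0 passed limma; the median of +0.015 turned below 0 with quantile normalization, without mulberry rat 1 and without mulberry rat 5. F9, the factor missing in haemophilia B, was at 19838, 18687, 17823, 18649 and 20030 in control rats 1 to 5 and at 22280, 19074, 19694, 22273 and 19943 in mulberry rats. All mulberry rats were above the control median, and rats 1 and 4 above every control. The difference was +0.12 ± 0.071 (SE). Prothrombin, F2, had a difference of +0.015 ± 0.061 and F10 one of -0.026 ± 0.080, which turned to +0.022 without control rat 3 and to +0.020 with array weights.

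Of the 3 other clotting and contact factors measured, 2 had a higher mean in mulberry rats and 0 passed limma, with a median of +0.052. F12, which starts the contact pathway, was at 14406, 14626, 14735, 14534 and 13963 in control rats 1 to 5 and at 15881, 14402, 14893, 14843 and 15169 in mulberry rats. Mulberry rats 1, 3, 4 and 5 were above the highest control and mulberry rat 2 was inside the control range. Because the whole range of the gene was only 1.14 times from lowest to highest rat, this came to +0.057 ± 0.062 (SE). Klkb1, the prekallikrein that F12 activates, differed by +0.052 ± 0.072 with all mulberry rats above the control median. F5, the cofactor of the prothrombin-cleaving complex, differed by -0.059 ± 0.14, with mulberry rat 5 the lowest at 4659.

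Fibrinogen is a hexamer made of pairs of 3 chains, encoded by Fga, Fgb and Fgg. All 3 had a slightly higher mean in mulberry rats, with 0 past limma and a median of +0.046. Fga was at 30906, 29468, 31923, 31306 and 30579 in control rats 1 to 5 and at 35965, 29303, 30299, 32170 and 30799 in mulberry rats. Fgb was at 35110, 32254, 33706, 33392 and 33936 in control rats 1 to 5 and at 39776, 32614, 32490, 37915 and 33643 in mulberry rats. Fgg was at 36761, 35805, 44674, 38155 and 37648 in control rats and at 42327, 36509, 36442, 45346 and 38743 in mulberry rats. Mulberry rats 1 and 4 were the 2 highest for Fga and Fgb, and mulberry rat 4 and control rat 3 for Fgg. The differences were +0.037 ± 0.068, +0.063 ± 0.072 and +0.046 ± 0.083 (SE). The highest intensity on any array was between 40721 and 49485 and Fgg reached 45346, near the top of that range. The dimmer probe sets gave +0.16 ± 0.17 for Fga and +0.45 ± 0.34 for Fgb (SE), the latter with group means of 64.2 (control) and 85.1 (mulberry), close to the filter level. Without mulberry rat 1 the difference of Fgb was +0.018 and that of Fga was -0.0094, and without mulberry rat 4 that of Fgg was -0.0021.

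Inhibitors of clotting were split in direction. Of 4 genes, 2 had a higher mean in mulberry rats and 2 in control rats; the median was +0.013, and 0 passed limma. Proc, the zymogen of activated protein C, which destroys factors V and VIII, was at 12337, 12446, 12010, 10478 and 11609 in control rats 1 to 5 and 11037, 11627, 11852, 10592 and 12146 in mulberry rats, a difference of -0.039 ± 0.075 (SE). Its cofactor Pros1 differed by -0.012 ± 0.077. Serpinc1, or antithrombin, differed by +0.038 ± 0.078 and Serpind1, or heparin cofactor II, by +0.053 ± 0.086. The median of the group turned below 0 with a median shift and without control rat 5 or mulberry rat 1.

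The fibrinolysis genes differed by less than 0.04 on the log2 scale in all 3 cases, and 0 passed limma. Plg, the plasminogen gene, was at 26316, 24529, 27922, 26372 and 25043 in control rats 1 to 5 and at 28914, 25134, 25338, 27007 and 25910 in mulberry rats, a difference of +0.023 ± 0.066 (SE). Serpinf2, the plasmin inhibitor, differed by +0.010 ± 0.090. Cpb2, a carboxypeptidase that protects fibrin from plasmin, differed by +0.036 ± 0.083 (SE). The median of +0.023 turned to -0.0096 without mulberry rat 1.

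Many of the genes were high or low together in the same rat. Mulberry rat 1 held the highest value for 13 of the 36 genes and the lowest for 0, and 34 genes were above their 10-rat mean there. Mulberry rat 4 followed with 8 highest values and 26 genes above their mean. Control rat 2 held the lowest value for 10 genes, control rat 1 for 7, and only 6 genes were above their mean in control rat 5. The median deviation of the 36 genes ran from -0.093 in control rat 2 to +0.11 in mulberry rats 1 and 4. For 30 of the 36 genes the highest rat was less than 1.5 times the lowest.

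Other bright probe sets shared this pattern. The 598 other probe sets with a mean log2 value of at least 13 had median deviations of +0.16 in control rat 3, +0.10 in mulberry rat 1, +0.082 in mulberry rat 4 and -0.10 in control rat 2. In mulberry rats 1 and 4 the 36 genes lay about as high as these probe sets, at +0.11 against +0.10 and +0.11 against +0.082. In control rat 3 they lay lower, at +0.044 against +0.16. Over all tested probe sets the median deviation per rat was between -0.021 and +0.047. With each array shifted by the other bright probe sets, a setting chosen after seeing the data, 26 of 36 means were higher in mulberry rats and the median was +0.026.

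**Figure D3:**
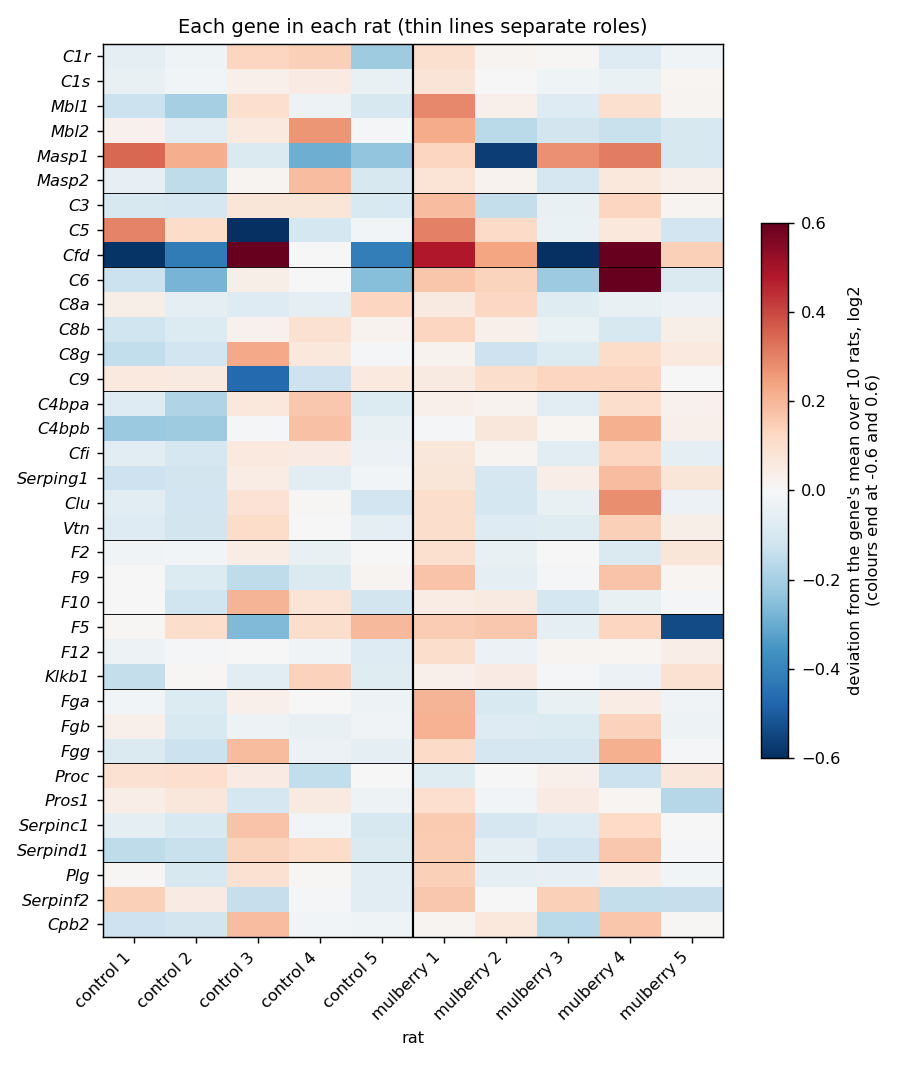
Deviation of each of the 36 genes from its own mean over the 10 rats, on the log2 scale, with genes ordered by role and rats in columns (the thick line separates control from mulberry rats). The column of mulberry rat 1 is mostly red, with 34 of 36 genes above their mean, and control rat 3 is high for most genes but low for C5, C9 and F5.

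**Figure D4:**
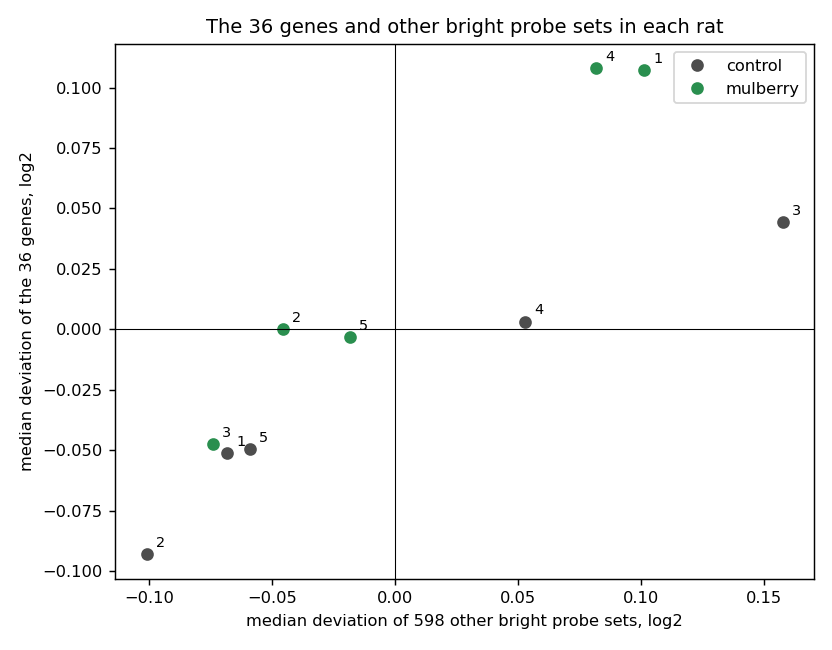
Median log2 deviation of the 36 genes in each rat (vertical axis) against that of 598 other bright probe sets (horizontal axis), numbered by rat. Rats of both groups lie along the same rising band, and control rat 3 sits below it.

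Genes that encode partners in 1 complex, or sister proteins, were compared across the 10 rats in 10 pairs, with permutation p-values adjusted over the 10 pairs. Fga and Fgb varied together, with r = 0.89 (permutation p = 0.00053, adjusted p = 0.0053) and rho = 0.81 (permutation p = 0.00715, adjusted p = 0.0238). Without the 2 rats farthest from the median of Fga, mulberry rats 1 and 2, r was 0.72 (permutation p = 0.0424, adjusted p = 0.106), so the relation lost its call without them. Measured relative to the other bright probe sets in the same rat, r was still 0.87 (permutation p = 0.00145, adjusted p = 0.0145). C4bpa and C4bpb gave r = 0.86 (permutation p = 0.00179, adjusted p = 0.00895) and rho = 0.76 (permutation p = 0.0152, adjusted p = 0.0345), and r = 0.84 relative to the bright probe sets (permutation p = 0.00402, adjusted p = 0.0201). Without control rats 2 and 4, the 2 farthest from the median of C4bpa, r was 0.73 (permutation p = 0.0249, adjusted p = 0.0832). With quantile normalization, also chosen after seeing the data, Fga and Fgb kept r = 0.83 (permutation p = 0.00131, adjusted p = 0.0131), while C4bpa and C4bpb had r = 0.65 (permutation p = 0.0467, adjusted p = 0.156). The calls by rho were less stable. For Fga and Fgb that call was lost with quantile normalization (rho = 0.80, permutation p = 0.00693, adjusted p = 0.0693), without the 2 farthest rats (adjusted permutation p = 0.23) and without control rat 2 or mulberry rat 1, 3 or 4, with adjusted permutation p between 0.0532 and 0.102. For C4bpa and C4bpb it was lost with quantile normalization (adjusted permutation p = 0.203), with the deviations from the group means (rho = 0.70, permutation p = 0.0305, adjusted p = 0.061), without the 2 farthest rats (adjusted permutation p = 0.269) and without control rat 1, 2, 4 or 5 or mulberry rat 3 or 4, with adjusted permutation p between 0.0532 and 0.113.

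Other relations between partners lost their call relative to the other bright probe sets. C1r and C1s gave r = 0.82 (permutation p = 0.00293, adjusted p = 0.00977) and rho = 0.87 (permutation p = 0.00183, adjusted p = 0.0103), and r = 0.83 without control rats 4 and 5 (permutation p = 0.0108, adjusted p = 0.0542). Relative to the other bright probe sets r was 0.58 (permutation p = 0.063, adjusted p = 0.157), and with quantile normalization 0.45 (permutation p = 0.195, adjusted p = 0.305). For Fga and Fgg r was 0.69 (permutation p = 0.0194, adjusted p = 0.0484) and rho 0.87 (permutation p = 0.00207, adjusted p = 0.0103), r was 0.88 without mulberry rats 1 and 2 (permutation p = 0.00117, adjusted p = 0.0117), and relative to the bright probe sets r was -0.11 (permutation p = 0.76, adjusted p = 0.76). That call was also lost with the deviations from the group means (r = 0.68, permutation p = 0.0284, adjusted p = 0.0569) and without any 1 of control rats 1 to 5 or mulberry rats 2 to 5, where r was between 0.65 and 0.74. By rho the call of Fga and Fgg held with the deviations from the group means (rho = 0.89, permutation p = 0.00104, adjusted p = 0.0104) and without each single rat (adjusted permutation p between 0.0165 and 0.0327), and was lost relative to the bright probe sets (rho = 0.055, permutation p = 0.893, adjusted p = 0.893) and without mulberry rats 1 and 2 (adjusted permutation p = 0.0678). Quantile normalization lost both calls of Fga and Fgg, with r = -0.75 (permutation p = 0.0163, adjusted p = 0.0814) and rho = -0.36 (permutation p = 0.298, adjusted p = 0.474). For Fgb and Fgg r was 0.67 (permutation p = 0.0351, adjusted p = 0.0702) and rho 0.75 (permutation p = 0.0172, adjusted p = 0.0345), and r was 0.29 without mulberry rats 1 and 4 (permutation p = 0.474, adjusted p = 0.593). That pair passed without control rat 3, with r = 0.86 (permutation p = 0.0116, adjusted p = 0.0291), and with a median shift of each array, with r = 0.82 (permutation p = 0.00384, adjusted p = 0.00768).

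Partner pairs that did not pass included all those of C8. The 3 C8 pairs had r of 0.20 (C8a and C8b), -0.42 (C8a and C8g) and 0.37 (C8b and C8g), Mbl1 and Mbl2 had 0.33, and Masp1 and Masp2 had -0.35, with adjusted permutation p between 0.374 and 0.58 for r. With a median shift C8b and C8g passed, with r = 0.70 (permutation p = 0.0242, adjusted p = 0.0403). As a description, r over all 630 pairs among the 36 genes ran from -0.82 to 0.97 with a median of 0.29, and 436 pairs were above 0. Relative to the other bright probe sets the median was 0.16 and the highest r 0.92. In both cases the highest r was above that of every partner pair, so high correlations were not particular to partners. All values of a rat come from 1 array, so its brightness is shared by every pair.

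**Figure D5:**
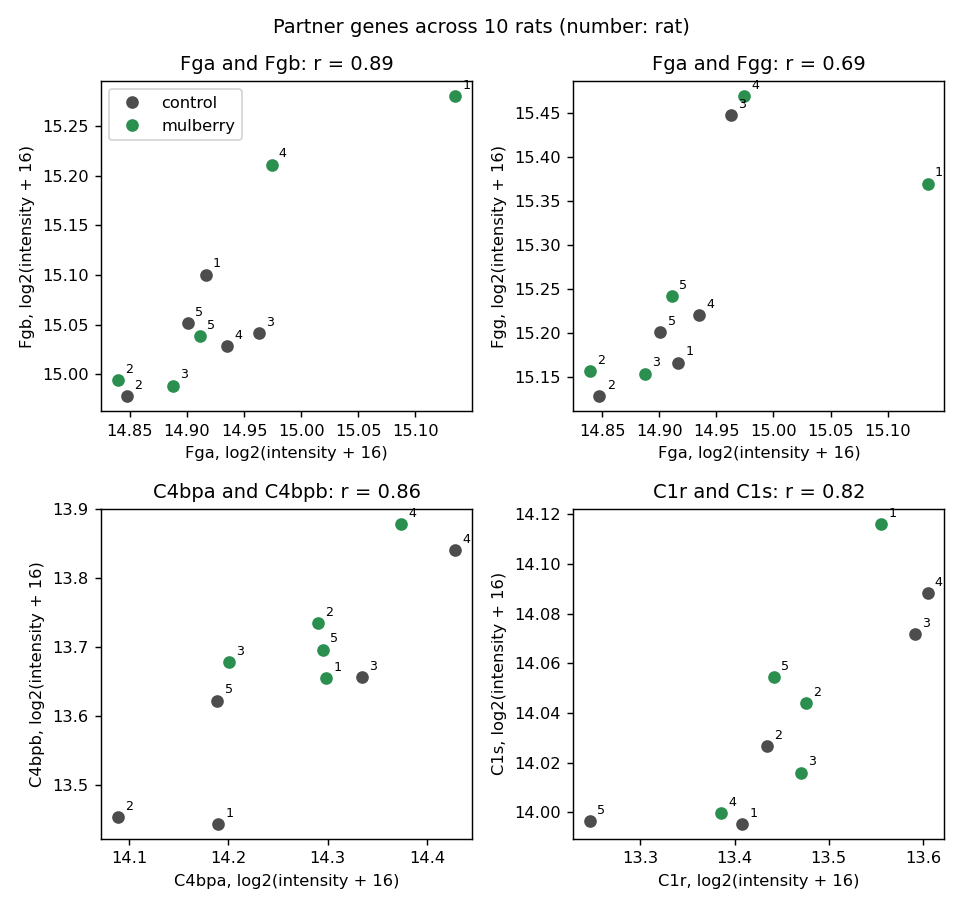
Log2(intensity + 16) of partner genes across the 10 rats, 1 point per rat, numbered and coloured by group. Fga and Fgb (r = 0.89) are set apart by mulberry rats 1 and 4, and C4bpa and C4bpb (r = 0.86) run from control rat 2 to control rat 4 and mulberry rat 4.

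Upstream sequences are shown for the fibrinogen and C4b-binding protein genes. Transcripts of Fga and Fgb, and of C4bpa and C4bpb, were correlated between rats. Neither call by r held without the 2 farthest rats, and that of C4bpa and C4bpb was also lost with quantile normalization. Transcripts of Fgg did not pass with either partner relative to the other bright probe sets. Whether the sequences bear on these correlations was not tested. Each sequence is the stretch of 250 bases before the gene's start in RefSeq (rat build GRCr8), 5′ to 3′ on the gene's strand. For Fga 2 promoter windows were listed, and the other is not shown. Capitals mark matches, on either strand, to GTTAAT, the core of the site of the hepatocyte factor HNF1, to TTGCNNAA, a C/EBP type motif, and to CTGGGAA, an interleukin-6 response type motif. Shorter forms of the last motif are not marked. The 3 fibrinogen genes lie close together on chromosome 2, at chr2:170652833-170653082 (+ strand) for Fgg, chr2:170671919-170672168 (+ strand) for Fga and chr2:170700876-170701125 (- strand) for Fgb, and the 2 C4b-binding protein genes on chromosome 13, at chr13:44663472-44663721 for C4bpa and chr13:44683782-44684031 for C4bpb, both on the - strand.
Fga: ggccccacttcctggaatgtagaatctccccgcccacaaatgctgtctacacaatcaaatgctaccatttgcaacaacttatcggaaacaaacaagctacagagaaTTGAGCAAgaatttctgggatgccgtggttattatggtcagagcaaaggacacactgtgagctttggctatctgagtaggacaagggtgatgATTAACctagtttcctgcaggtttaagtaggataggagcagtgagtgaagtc
Fgb: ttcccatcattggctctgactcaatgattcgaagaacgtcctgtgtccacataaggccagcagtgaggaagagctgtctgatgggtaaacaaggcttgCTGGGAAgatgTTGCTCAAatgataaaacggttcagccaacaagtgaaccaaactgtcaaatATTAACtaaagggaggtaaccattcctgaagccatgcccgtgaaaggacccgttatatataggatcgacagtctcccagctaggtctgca
Fgg: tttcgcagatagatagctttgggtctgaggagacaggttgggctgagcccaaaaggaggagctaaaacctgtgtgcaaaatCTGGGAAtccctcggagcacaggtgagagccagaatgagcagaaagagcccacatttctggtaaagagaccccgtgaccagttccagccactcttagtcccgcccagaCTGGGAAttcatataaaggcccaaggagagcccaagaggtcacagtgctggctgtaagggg
C4bpa: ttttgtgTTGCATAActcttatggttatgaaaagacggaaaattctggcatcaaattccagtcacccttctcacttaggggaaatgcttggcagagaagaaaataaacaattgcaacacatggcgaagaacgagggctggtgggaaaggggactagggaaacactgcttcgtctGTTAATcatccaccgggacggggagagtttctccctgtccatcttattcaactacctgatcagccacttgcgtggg
C4bpb: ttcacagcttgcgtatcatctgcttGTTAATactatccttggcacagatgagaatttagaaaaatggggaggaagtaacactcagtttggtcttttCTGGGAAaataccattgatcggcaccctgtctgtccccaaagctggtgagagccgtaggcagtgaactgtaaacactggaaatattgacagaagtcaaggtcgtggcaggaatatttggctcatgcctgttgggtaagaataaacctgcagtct

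Fga and Fgb each held an HNF1 match and a C/EBP type match, with their first bases at -52 and -144 in Fga and at -90 and -141 in Fgb, where -1 is the base before the start. Fgg held neither but had 2 interleukin-6 type matches, at -169 and -61, and Fgb had 1 at -152. Both C4b-binding protein genes held an HNF1 match, at -76 in C4bpa and -225 in C4bpb, while the C/EBP type match at -243 occurred in C4bpa and the interleukin-6 type match at -154 in C4bpb. These are matches of letters and not measured binding sites.

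Promoter windows of 300 bases, reaching 50 bases past the start, were listed for 28 of the 36 genes. Of these 28, 9 (32.1%) held the HNF1 motif, against 7.37% of 27457 rat promoters; they were C5, C8a, C4bpa, C4bpb, F2, Fga, Fgb, Proc and Plg. The C/EBP type motif was in 11 (39.3%, against 10.5%), among them C3, C6, F9 and Serpinc1. CTGGGAA was in 9 (32.1%, against 10.9%), among them C1r, C3, Vtn and Plg, and the HNF4 type motif CAAAGTCCA was in 0 of 28, against 0.375%. Both strands were searched, a stretch can match more than 1 motif, and the shares were not tested.

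Other genes of the same cascades, from a list of textbook names, were tested in the same fit. Of 9 further complement genes tested 7 had a higher mean in mulberry rats and 2 in control rats (median +0.090). Cfp, which encodes properdin, the stabiliser of the alternative convertase, differed by +0.38 ± 0.27 (SE) and C1qa by +0.26 ± 0.25. Of 12 further coagulation genes 9 had a higher mean in mulberry rats and 3 in control rats (median +0.048). Thbd, which encodes the endothelial thrombin receptor thrombomodulin, differed by -0.32 ± 0.21 (SE) and Tfpi, the tissue factor pathway inhibitor, by +0.13 ± 0.12. The 4 further fibrinolysis genes all had a higher mean, between +0.034 and +0.086, and the plasminogen activator gene Plat differed by +0.050 ± 0.17 and the protease inhibitor gene Serpine2 by +0.086 ± 0.17. The number with an unadjusted limma p under 0.05 was 0 in each of these lists.

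Genes that act on the transcription of plasma proteins in liver were taken from a further list, which held transcription factors, the cytokine receptor genes Il6r, Il6st and Il1r1, and Socs3, an inhibitor of cytokine signalling. Of the 10 tested, 8 had a lower mean in mulberry rats, the median was -0.083, and 0 had an unadjusted limma p under 0.05. Cebpb, the C/EBP factor of the acute-phase response, was at 5100, 3331, 4370, 4141 and 4709 in control rats 1 to 5 and at 2302, 4303, 3374, 3280 and 4337 in mulberry rats. Mulberry rats 1, 3 and 4 and control rat 2 were the low ones, and the difference was -0.32 ± 0.17 (SE), and -0.18 without mulberry rat 1. Stat3, which carries the interleukin-6 signal, differed by -0.20 ± 0.18 and Hnf4a, a hepatocyte nuclear receptor, by -0.042 ± 0.097 (SE). Mulberry rat 1 had the lowest Cebpb of all 10 rats and the most genes at their highest value among the 36. Control rat 2, also among the low ones for Cebpb, held the most genes at their lowest value (10). A relation between Cebpb and the 36 genes was not tested.

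Blood carried in the liver was gauged by markers of its cells. Platelet markers summed to 524 to 999 in control and 693 to 1771 in mulberry rats, and Pf4 was at 1185 in mulberry rat 5 against at most 303 in the other rats. Red blood cell markers summed to 17238 to 30016 in control and 23221 to 27439 in mulberry rats. Of 3 neutrophil markers tested, 2 had an unadjusted limma p under 0.05, S100a8 at -0.62 ± 0.27 and S100a9 at -0.77 ± 0.19 (SE), while the third, Lcn2, differed by +0.28 ± 0.29. The adjusted limma p of each was 0.9999. S100a8 lay close to the filter level, with group means of 86.3 (control) and 54.4 (mulberry). The sum of the 3 ran from 334 to 462 in control and from 196 to 402 in mulberry rats. Of 5 macrophage markers tested 1 had an unadjusted limma p under 0.05, Cd68 at +0.39 ± 0.18 (SE), and the number was 0 for the platelet, red blood cell, hepatocyte, endothelial, stellate cell and pancreatic lists. The part of these markers in the values of the 36 genes was not tested.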

How the data were processed

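The deposited values are linear signal intensity values of 31099 probe sets on 10 arrays; MAS5 and affy are named in the submitters' processing notes, with no version or role. In the deposited table the mean intensity trimmed by 2% at each end was 500.0 on every array, so no scaling was added. Left out were 57 control probe sets and those at or under the 40th percentile of mean log2(intensity + 16). The groups, taken from the titles, were compared two-sided with a linear model per probe set (limma 3.58.1, R 4.3.3, variance trend), and p-values were adjusted after Benjamini-Hochberg over 18625 probe sets. The fit was tested on simulated data. Correlations had two-sided permutation p-values from 100000 resamples (scipy 1.17.1, numpy 2.4.6). By the labels every array holds the liver of another rat, and the number of arrays limits the precision.

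The genes, roles and lists were chosen with earlier results of these data known. Named with values in each rat were mainly the 2 genes per role with the smallest unadjusted p and the fibrinogen genes. So were the most and least variable gene, genes whose probe sets differed in sign and genes with a rat standing apart. Clu, F10, Klkb1, Serpind1 and Cpb2 met these rules but were given without the values of each rat. C3 and the other genes given by their difference alone were added. In each further list the 2 genes with the smallest unadjusted p were named, and Hnf4a, Pf4 and Lcn2 were added after their values were seen.

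The alternatives changed the pseudocount (1 or 64), the filter (none, or the 60th percentile), the scaling (quantile or median), the variance trend, the weights of the arrays, the probe set of a gene, the threshold (0.1) and the rats included. Deviations of rats of equal number had correlations from -0.33 to 0.096 (0 of 5 over 0.1), and those of unequal number from -0.27 to 0.40. The labels do not pair the rats by number, and these values cannot show whether equal numbers mark a shared litter, day or batch.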

Additional observations from a re-analysis of the deposited data

Results flagged for a closer look

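Of 72 groups of 5 rats examined for the 36 genes, 2 held a rat far from the other 4 by Dixon's ratio (critical value 0.71), where chance gives about 1 in 20. Mbl2 was at 18185 in mulberry rat 1, with the other mulberry rats between 13947 and 14584, a gap of 0.832 of the range. Fgg was at 44674 in control rat 3, with the other control rats between 35805 and 38155, a gap of 0.713 of the range. Among the further pathway genes named, C1qa was at 5359 in control rat 3, with the other control rats between 2379 and 2809, a gap of 0.796 of the range.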

How the results depend on the processing

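With limma, 0 of the 36 genes passed an adjusted p of 0.05 in each of 20 alternative fits, and 0 passed an adjusted p of 0.1. With the replicate number as a block the count was also 0, with 0 of 18625 probe sets called. The count of higher means was between 21 and 31 and the median between 0.020 and 0.062 when 1 rat was left out, and between 26 and 30 and between 0.020 and 0.057 otherwise. Of 30 named genes, 20 kept their sign in all settings. The sign turned with a median shift (C1s -0.0043), the shift by bright probe sets (C1s -0.0022), quantile normalization (Plg -0.011) and array weights (Masp1 -0.044, F10 0.020). When 1 rat was left out, the difference ranged from -0.0071 to 0.024 for C1s, -0.054 to 0.16 for Masp1, -0.0053 to 0.22 for C5, -0.059 to 0.022 for F10, -0.0094 to 0.064 for Fga, -0.0021 to 0.099 for Fgg, -0.0096 to 0.048 for Plg, -0.00022 to 0.087 for Cpb2, -0.0042 to 0.19 for Serpine2 and -0.078 to 0.14 for Plat. The number of partner pairs past the threshold was 4, or 6 with a median shift, 3 with deviations from the group means, 1 with quantile normalization, 2 with the shift by bright probe sets, 1 without the 2 farthest rats and 3 or 4 without 1 rat. The sign of r turned with a median shift for C8a and C8g (0.25), with quantile normalization for Fga and Fgg (-0.75), Fgb and Fgg (-0.57) and Mbl1 and Mbl2 (-0.17), with the shift by bright probe sets for Fga and Fgg (-0.11), C8b and C8g (-0.20) and Mbl1 and Mbl2 (-0.15), and without the 2 farthest rats for Mbl1 and Mbl2 (-0.20). For Mbl1 and Mbl2 r was between -0.091 and 0.49 when 1 rat was left out. Quantile normalization gives equal ranks equal values, and its part in the turned signs was not tested.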
